A study of Homo sapiens with 6 samples.

Results

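The enzymes that build purine and pyrimidine nucleotides were examined in H9 cells as a family of 10 genes, chosen by symbol from the deposited count table, which covers 61541 Ensembl genes. PPAT, GART, PAICS and ATIC stand on the route to inosine monophosphate (IMP), IMPDH2 on the guanine branch, HPRT1 in purine salvage, CAD, UMPS and CTPS1 on the route to uridine and cytidine nucleotides, and TYMS at the step to thymidylate. Each of the 10 symbols had 1 row in the table, and all 10 genes passed the filter on low counts. H9 is an established cutaneous T-cell lymphoma line (wild type by its label), which the study counts among the MCL-1 independent lines, and both groups were grown from it. Poly(A) RNA is given by the labels for all libraries, whereas the supplemental methods describe rRNA depletion. Bulk RNA-seq covered 3 libraries from cells given the vehicle DMSO and 3 from cells given AZD4573, a selective inhibitor of CDK9, the kinase that releases paused RNA polymerase II (RNAP2) into elongation. The dose was 50 nM, and the sample titles give an exposure of 4 h for AZD4573, whereas the discussion of the study gives 6 h. It is not stated whether the 3 libraries of a group came from separate cultures, so the p-values measure the spread between these libraries, which may be technical.

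Dividing cells assemble the purine ring stepwise on phosphoribosyl pyrophosphate (PRPP), and IMP is then turned into AMP or GMP. Pyrimidines are assembled as a free ring that is joined to PRPP late, giving UMP, from which CTP and the thymidylate of DNA derive. Salvage enzymes return free bases and nucleosides to the same pools, and proliferating lymphocytes are known to depend on both de novo routes.

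Total counts ran from 70367303 to 76571157 with DMSO and from 52101868 to 63795185 with AZD4573, and the members had between 1310 and 22422 counts in a library. Levels are given as normalised CPM, which are counts per 1e+06 counts of a library, with the libraries scaled by edgeR's trimmed mean of M values (TMM). Of 10 T-cell markers, 9 were above 1 CPM in every library, and CD2 was the exception with at most 0.170 CPM. The summed T-cell markers were at 1381 to 1400 CPM with DMSO and 1508 to 1529 CPM with AZD4573. Among markers of other cells, CD79A (57.2 to 62.4 CPM against 86.4 to 94.2 CPM), EPCAM (155 to 171 CPM against 126 to 133 CPM) and COL1A1 (5.11 to 7.71 CPM against 3.39 to 4.26 CPM) were above 1 CPM in every library. The other 9 B-cell, epithelial and fibroblast markers and the 3 erythroid ones stayed below 1 CPM throughout, while of the 5 myeloid markers MPO reached 1.57 CPM with AZD4573 from 0 counts with DMSO. The part of these cell-type markers in the results was not tested.

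Upon AZD4573 treatment, members of the family were observed to move in both directions under TMM scaling. Transcripts of PPAT, UMPS and CTPS1 fell to 43.1%, 41.6% and 44.5% of their DMSO level, and ATIC fell by a small amount. PAICS, IMPDH2, HPRT1 and TYMS rose to between 118% and 127% of the DMSO level under TMM scaling. Their log2 fold changes were smaller with library size as the only scaling (0.13 to 0.24), and all 4 were lower when the libraries were scaled to the mitochondrially encoded mRNAs. Thus 4 members passed an adjusted p under 0.05 downwards and 4 upwards (quasi-likelihood test of edgeR, adjusted over all genes by the Benjamini-Hochberg method), and GART and CAD did not pass. Of the 17678 genes tested, 37.4% were called lower and 37.3% higher by the same rule (74.7% in either direction), so that the shares of the members lie near the background in both directions. With a fold change of at least 1.5 added, 3 members were lower, against 23.7% of all genes, and 0 were higher, against 22.7%. The count of 0 was the same by DESeq2 and with an unadjusted p under 0.05, since no rise reached that size. The libraries did not overlap between groups for 4 lower members (38.7% of all genes) and 5 higher members (39% of all genes), or 9 of 10 members in either direction against 77.8% of all genes. In bulk RNA, fewer cells expressing a gene and less of its RNA per cell cannot be told apart.

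**Figure D1:**
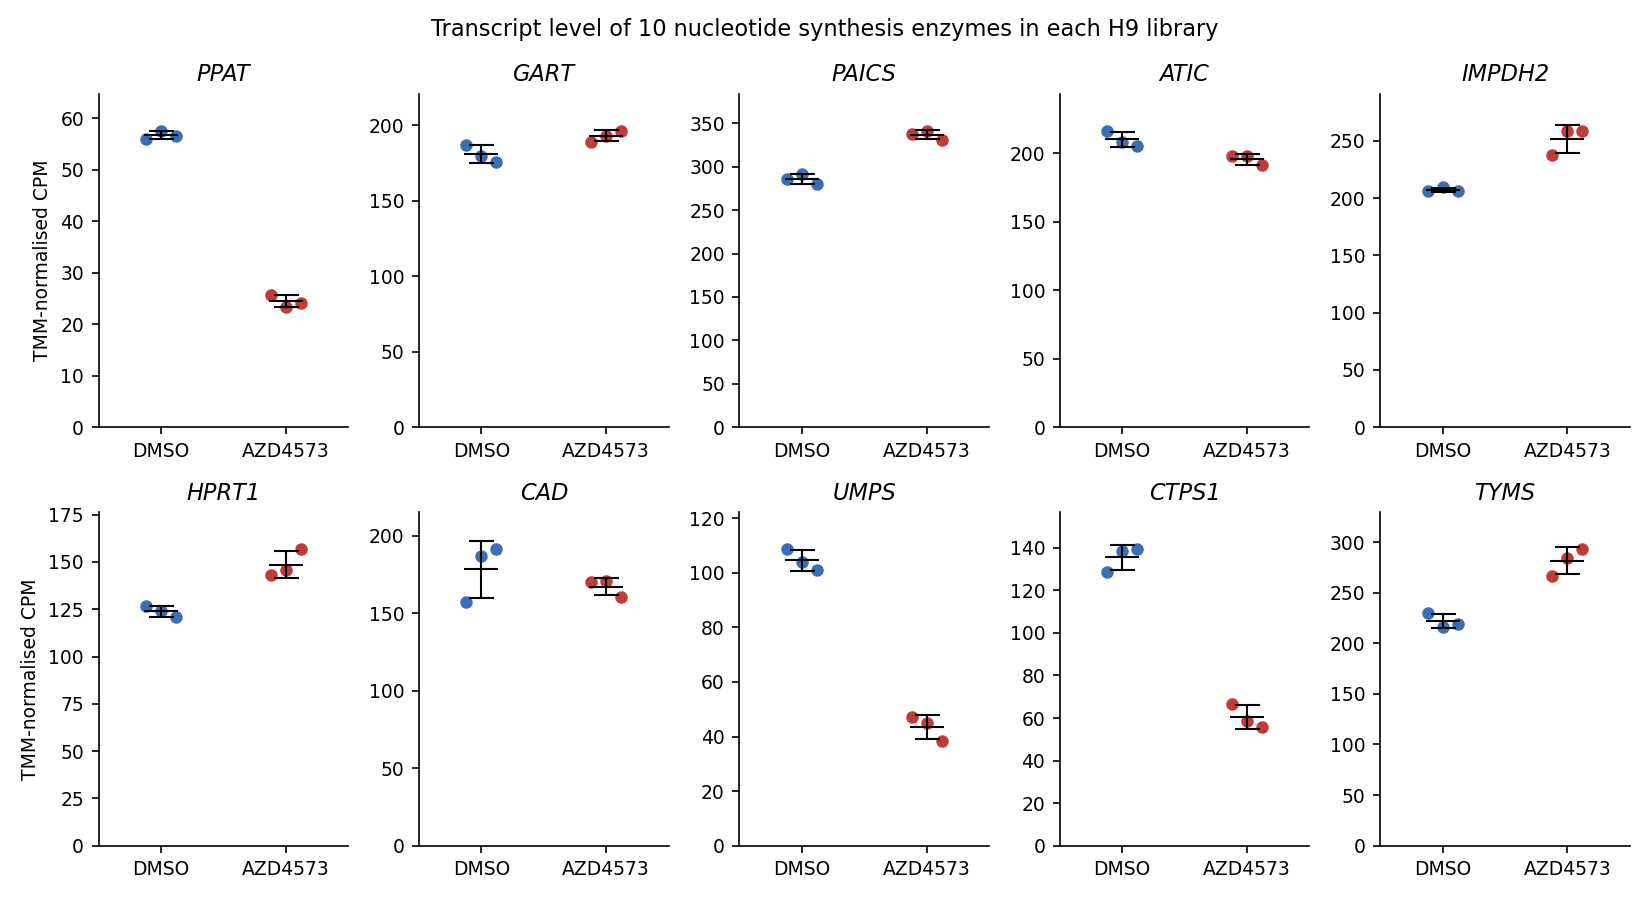
Each panel shows 1 enzyme, with the TMM-normalised CPM of each library on a linear axis from 0 (points, 3 DMSO in blue and 3 AZD4573 in red) and the mean with the SD as bars. PPAT, UMPS and CTPS1 lie at 41.6% to 44.5% of their DMSO means, CAD overlaps between the groups, and the rises of PAICS, IMPDH2, HPRT1 and TYMS seen here turn to falls under mitochondrial scaling.

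Under TMM scaling, the summed level of the 10 members did not show these changes. It was 1705 ± 10.3 normalised CPM with DMSO and 1702 ± 19.0 normalised CPM with AZD4573 (SD, n = 3 each). As a share of all counts, without TMM factors, the members took less with AZD4573. The share was 0.177% ± 0.00209 with DMSO and 0.164% ± 0.000803 with AZD4573 (SD, n = 3 each). To compare genes with each other, normalised CPM were divided by the length of the MANE Select transcript, the reference transcript of each gene. Which transcripts the H9 cells used was not examined, so the order below holds for these lengths only. The SD does not cover this uncertainty. On this per-kilobase scale the highest levels with DMSO were those of TYMS (137 ± 4.37), IMPDH2 (125 ± 1.20), ATIC (106 ± 2.92) and HPRT1 (88.8 ± 2.13). GART (54.5 ± 1.73), CTPS1 (47.7 ± 2.04) and PAICS (44.9 ± 0.854) lay in the middle range. CAD (24.5 ± 2.52), UMPS (15.7 ± 0.581) and PPAT (15.4 ± 0.214) were lowest, and the difference between UMPS and PPAT was smaller than the SD of UMPS but not that of PPAT (SD, n = 3 for each gene). With AZD4573, PPAT and UMPS stood at 6.64 ± 0.323 and 6.54 ± 0.670 on the same scale and differed by less than either SD. TYMS stood at 174 ± 8.33 and remained the highest.

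The route to IMP was examined first. PPAT (ENSG00000128059, 11 exons at chr4:56393362-56435615 on the minus strand of GRCh38) encodes the amidotransferase that commits PRPP to purines and is feedback inhibited by purine nucleotides. It was at 56.0, 57.6 and 56.6 normalised CPM in the DMSO libraries and at 25.7, 23.4 and 24.2 in the AZD4573 libraries. Every AZD4573 library was below every DMSO library, and the spread within each group was small beside the gap. The mean fell from 56.8 ± 0.788 to 24.4 ± 1.19 normalised CPM (SD, n = 3 each), a log2 fold change of -1.22 (standard error, SE, 0.0535, 95% interval -1.33 to -1.10, adjusted p = 3.3e-10).

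PAICS (ENSG00000128050, 9 exons at chr4:56435741-56464578 on the plus strand) encodes the bifunctional carboxylase and ligase of the middle of the route and lies next to PPAT, head to head. Its levels were 286, 291 and 280.4 normalised CPM with DMSO and 338, 342 and 331 with AZD4573. All AZD4573 libraries were above all DMSO libraries, opposite to PPAT. The mean rose from 286 ± 5.44 to 337 ± 5.30 normalised CPM (SD, n = 3 each), a log2 fold change of 0.24 (SE 0.0383, 95% interval 0.15 to 0.32, adjusted p = 7.8e-05). With scaling to the mitochondrially encoded mRNAs it was -0.50.

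The MANE start of PAICS is 645 bases from that of PPAT, and RefSeq holds a further PAICS start only 137 bases away. The promoter windows of both genes, 250 bases before to 50 bases after a start (RefSeq, GRCh38.p14), are shown because the genes share this short region and moved in opposite directions under TMM scaling. Under mitochondrial scaling both were lower, with log2 fold changes of -1.95 for PPAT and -0.50 for PAICS. Capitals mark the E-box CACGTG, a site bound by MYC and related factors, which reads the same on both strands.
PPAT: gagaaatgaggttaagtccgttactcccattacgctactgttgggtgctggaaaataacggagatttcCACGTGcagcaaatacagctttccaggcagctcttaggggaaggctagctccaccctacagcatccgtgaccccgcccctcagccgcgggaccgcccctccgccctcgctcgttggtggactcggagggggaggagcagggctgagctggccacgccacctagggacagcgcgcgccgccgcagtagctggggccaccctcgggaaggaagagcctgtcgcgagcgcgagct
PAICS, MANE start: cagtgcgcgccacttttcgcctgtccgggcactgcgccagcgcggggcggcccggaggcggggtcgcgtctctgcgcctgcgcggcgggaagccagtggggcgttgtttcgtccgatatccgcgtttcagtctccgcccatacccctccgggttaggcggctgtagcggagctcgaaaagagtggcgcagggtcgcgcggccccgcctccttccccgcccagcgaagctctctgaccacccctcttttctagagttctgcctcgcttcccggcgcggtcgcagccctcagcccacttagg
PAICS, alternative start: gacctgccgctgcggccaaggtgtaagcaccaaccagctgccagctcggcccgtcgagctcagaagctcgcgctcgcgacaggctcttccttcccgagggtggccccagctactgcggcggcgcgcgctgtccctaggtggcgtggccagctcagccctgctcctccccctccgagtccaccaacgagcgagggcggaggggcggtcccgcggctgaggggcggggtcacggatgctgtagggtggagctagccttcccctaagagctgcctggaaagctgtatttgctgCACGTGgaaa
These windows are chr4:56435566-56435865 on the minus strand, chr4:56436010-56436309 on the plus strand and chr4:56435502-56435801 on the plus strand. The window of PPAT and that of the alternative PAICS start overlap by 236 bases, so the E-box at position -182 from the PPAT start and the one at position 40 from the alternative PAICS start are the same 6 letters read from either side. The window at the MANE start of PAICS holds no E-box.

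As both genes are read from the same library, the ratio of their counts does not depend on the scaling. PAICS counts were 5.10, 5.06 and 4.95 times the PPAT counts in the DMSO libraries and 13.1, 14.6 and 13.7 times in the AZD4573 libraries. The mean ratio went from 5.04 ± 0.0763 to 13.8 ± 0.747 (SD, n = 3 each), 2.74-fold higher with AZD4573. The two-sided exact permutation test gave p = 0.1, the smallest value that 3 libraries against 3 allow, and 0.1 after adjustment over the 2 ratios computed. The 7 pseudogenes named after PAICS together held at most 18 counts in a library, or 0.105% of the counts of the gene.

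**Figure D2:**
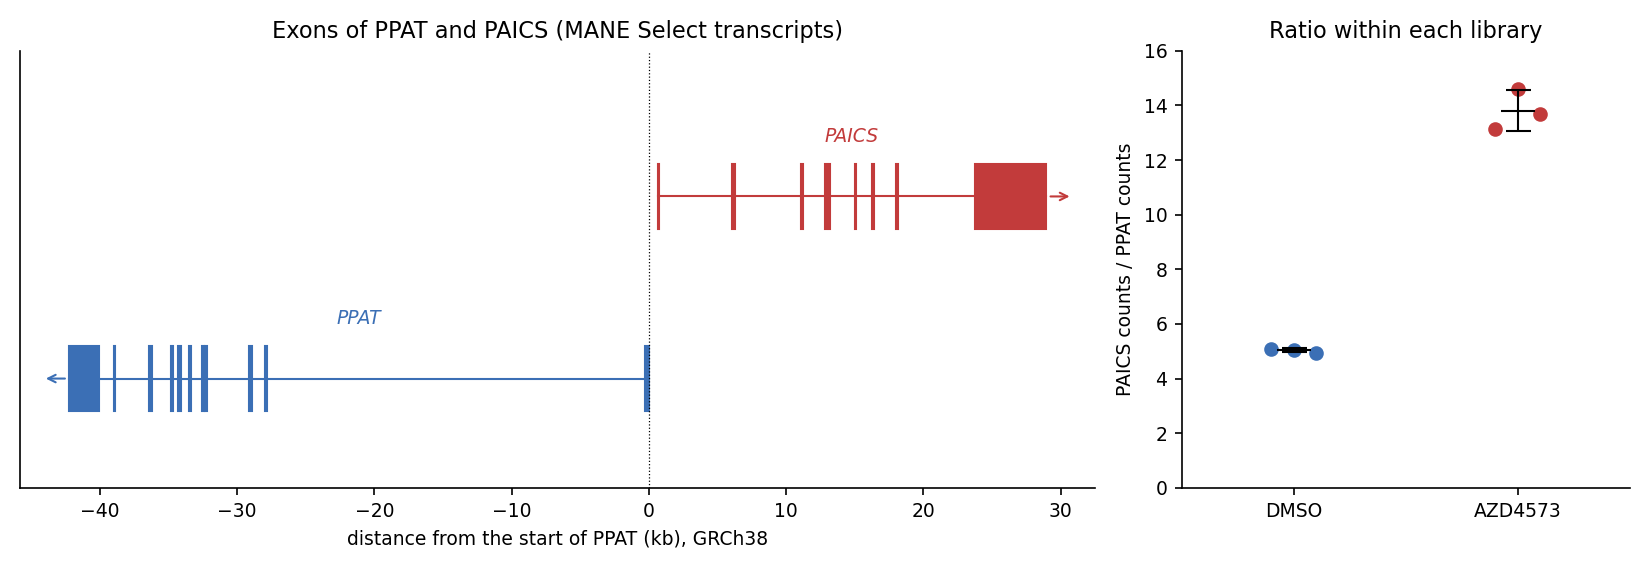
Left, the exons of the MANE Select transcripts of PPAT (blue) and PAICS (red) as boxes by distance in kb from the PPAT start, with arrows in the direction of transcription. Right, PAICS counts divided by PPAT counts in each library (points) with mean and SD (bars), on a linear axis from 0, where the DMSO libraries lie at 4.95 to 5.10 and the AZD4573 libraries at 13.1 to 14.6.

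GART (ENSG00000159131, 22 exons at chr21:33503931-33543491, minus strand) encodes the trifunctional enzyme that catalyses separate early steps of the route. It was at 187, 179.9 and 176 normalised CPM with DMSO and 189, 193 and 196 with AZD4573. The groups did not overlap, but the gap between them was narrower than the spread within a group. The means were 181 ± 5.75 and 193 ± 3.68 normalised CPM (SD, n = 3 each), with a log2 fold change of 0.09 (SE 0.0412, 95% interval 0.0037 to 0.18) and an adjusted p of 0.0562. Leaving out DMSO replicate 1 or AZD4573 replicate 1 brought the adjusted p to 0.0215 and 0.0434, and the alternatives as a whole gave 2.3e-08 to 0.790. The sign turned with library size as the only scaling (-0.01) and with mitochondrial scaling (-0.65).

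ATIC (ENSG00000138363, 16 exons at chr2:215311956-215349773, plus strand) encodes the bifunctional enzyme that closes the purine ring to give IMP. Its promoter window is shown as the only one at a MANE start among the members that holds both an E-box and a GATA motif, the letters bound by factors such as GATA-3 (the words AGATAA and AGATAG as well as TGATAA and also TGATAG, on either strand). Both kinds of motif are in capitals, and at the first match they run into each other, sharing the letters TG.
ATIC: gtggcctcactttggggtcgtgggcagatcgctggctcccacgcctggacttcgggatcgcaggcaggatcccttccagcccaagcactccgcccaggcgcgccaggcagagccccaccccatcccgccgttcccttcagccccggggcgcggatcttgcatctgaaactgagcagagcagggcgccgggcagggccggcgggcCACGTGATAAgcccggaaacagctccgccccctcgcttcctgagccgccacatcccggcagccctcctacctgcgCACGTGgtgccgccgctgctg
The window is chr2:215311809-215312108 on the plus strand of GRCh38.p14 (RefSeq). ATIC was at 216, 208 and 205 normalised CPM with DMSO and 198, 198 and 191 with AZD4573, and the groups did not overlap. The mean fell from 209.9 ± 5.77 to 196 ± 3.98 normalised CPM (SD, n = 3 each), a log2 fold change of -0.10 (SE 0.0405, 95% interval -0.19 to -0.01, adjusted p = 0.0350). The call was lost without DMSO replicate 2 (adjusted p = 0.0555), without AZD4573 replicate 3 (0.0997) and with at least 10 counts required in every library (0.151), with a range from 1.2e-09 to 0.151 over all alternatives.

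IMPDH2 and HPRT1, the members on the guanine branch and in purine salvage, both rose under TMM scaling and were lower under mitochondrial scaling. IMPDH2 (ENSG00000178035, 14 exons at chr3:49024325-49029447, minus strand), the target of mycophenolic acid in lymphocytes, encodes the dehydrogenase that leads IMP towards GMP. It was at 206, 209 and 206 normalised CPM with DMSO and at 237, 259 and 259 with AZD4573. The DMSO libraries lay close together, and AZD4573 replicate 1 was the lowest of its group but above all of them. The mean rose from 207 ± 1.99 to 252 ± 12.5 normalised CPM (SD, n = 3 each), a log2 fold change of 0.28 (SE 0.0438, 95% interval 0.19 to 0.38, adjusted p = 5.5e-05), which was -0.46 with mitochondrial scaling. Of its 5123 exon bases, 1680 also belong to a protein-coding gene on the same strand (ENSG00000290315), which the deposited counts do not cover. Any reads of that gene over these bases cannot be told apart from those of IMPDH2.

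Within libraries, IMPDH2 counts were 1.51, 1.5 and 1.54 times those of IMPDH1, the isozyme of the same step, with DMSO and 1.94, 2.13 and 2.10 times with AZD4573. The mean ratio went from 1.52 ± 0.0219 to 2.06 ± 0.0987 (SD, n = 3 each), 1.35-fold higher, with p = 0.1 in the two-sided exact permutation test, again the smallest value possible. IMPDH1 itself went from 136 ± 2.96 to 122 ± 0.956 normalised CPM (SD, n = 3 each), with a log2 fold change of -0.15 (SE 0.0401, adjusted p = 0.00327). Its 10 pseudogenes held up to 213 counts in a library, and with them added the log2 difference of the ratio went from 0.44 to 0.41.

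HPRT1 (ENSG00000165704, 9 exons at chrX:134460165-134520513, plus strand) encodes the salvage enzyme that joins hypoxanthine or guanine to PRPP. It was at 127, 124 and 121 normalised CPM with DMSO and 143, 146 and 157 with AZD4573, and the groups were separate. The mean rose from 124 ± 2.97 to 149 ± 7.25 normalised CPM (SD, n = 3 each), a log2 fold change of 0.26 (SE 0.0459, 95% interval 0.16 to 0.36, adjusted p = 1.5e-04). With mitochondrial scaling the log2 fold change was -0.48. Its 3 pseudogenes had 0 counts in each library.

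On the pyrimidine route, the trifunctional enzyme of the opening steps and the enzymes that follow it differed. CAD (ENSG00000084774, 44 exons at chr2:27217369-27243943, plus strand) encodes carbamoyl-phosphate synthetase, aspartate transcarbamoylase and dihydroorotase in a single protein. It was at 158, 187 and 191 normalised CPM with DMSO and 170.4, 171 and 161 with AZD4573. DMSO replicate 1 lay below all AZD4573 libraries and the other DMSO libraries above all of them, so that the groups overlapped. The means were 179 ± 18.4 and 167 ± 5.66 normalised CPM (SD, n = 3 each), with a log2 fold change of -0.09 (SE 0.0638, 95% interval -0.23 to 0.04, adjusted p = 0.193). Without DMSO replicate 1 it was -0.19 with an adjusted p of 0.00107, and the adjusted p lay between 1.0e-08 and 0.484 across the alternatives.

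UMPS (ENSG00000114491, 6 exons at chr3:124730433-124749273, plus strand) encodes the bifunctional enzyme that joins orotate to PRPP and decarboxylates the product to UMP. Its levels were 109, 104 and 101 normalised CPM with DMSO and 47.1, 44.8 and 38.5 with AZD4573. The lowest DMSO library was above the highest AZD4573 library by more than the spread of either group. The mean fell from 105 ± 3.87 to 43.5 ± 4.45 normalised CPM (SD, n = 3 each), a log2 fold change of -1.27 (SE 0.0666, 95% interval -1.41 to -1.12, adjusted p = 1.4e-09), the largest fall among the members.

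CTPS1 (ENSG00000171793, 19 exons at chr1:40979300-41012565, plus strand) encodes the CTP synthase that expanding lymphocytes are known to require. It was at 129, 138 and 139 normalised CPM with DMSO and 66.6, 58.7 and 55.6 with AZD4573, with a wide gap between the groups. The mean fell from 136 ± 5.81 to 60.3 ± 5.69 normalised CPM (SD, n = 3 each), a log2 fold change of -1.17 (SE 0.0627, 95% interval -1.30 to -1.03, adjusted p = 1.7e-09). CTPS2, the isozyme of the same step, had at most 1 count in a library and was not tested. A count of 0 allows up to 0.0392 to 0.0576 CPM across the libraries, taken as 3 counts of the total, which covers counting error only.

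The promoter windows of UMPS and CTPS1 are shown because these genes fell by about as much as PPAT. Neither of these windows, both at the MANE start, holds an E-box or a GATA motif. A further CTPS1 start, 8823 bases from the MANE start, has a window with 2 GATA matches, which is not shown.
UMPS: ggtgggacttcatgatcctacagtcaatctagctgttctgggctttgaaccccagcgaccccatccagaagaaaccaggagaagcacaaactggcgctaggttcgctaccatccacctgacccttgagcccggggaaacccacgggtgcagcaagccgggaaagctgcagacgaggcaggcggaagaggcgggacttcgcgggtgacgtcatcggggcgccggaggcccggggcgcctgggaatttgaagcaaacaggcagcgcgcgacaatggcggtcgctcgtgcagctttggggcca
CTPS1: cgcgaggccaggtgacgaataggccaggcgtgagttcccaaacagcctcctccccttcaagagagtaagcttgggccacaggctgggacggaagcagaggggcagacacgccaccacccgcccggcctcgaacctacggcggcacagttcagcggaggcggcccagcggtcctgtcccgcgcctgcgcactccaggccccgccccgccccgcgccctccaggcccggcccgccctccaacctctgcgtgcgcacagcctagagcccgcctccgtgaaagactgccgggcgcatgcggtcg
They are chr3:124730202-124730501 and chr1:40979446-40979745, both on the plus strand of GRCh38.p14 (RefSeq). Windows at the MANE start were at hand for 9 members, with none for IMPDH2. An E-box lay in 2 of the 9 (PPAT and ATIC), against 7.26% of all 35116 RefSeq windows searched on both strands. A GATA motif lay in 1 of the 9 (ATIC), against 25.0% of all windows. The GC box GGGCGG was in 7 of the 9 (45.0% of all windows), CCAAT in 2, GART and CAD (34.6%), and TATAAA in GART alone (11.5%). These matches are descriptions of the letters and give no evidence of binding. Of the 3 members that fell most, PPAT and CTPS1 shared the GC box and UMPS held none of these motifs. The GC box was also in GART, PAICS, ATIC, HPRT1 and CAD, and TYMS, which rose under TMM scaling, held none of the motifs either.

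TYMS (ENSG00000176890, 7 exons at chr18:657653-673578, plus strand) encodes thymidylate synthase, the target of fluoropyrimidines. It was at 229.7, 216 and 219 normalised CPM with DMSO and 267, 285 and 293 with AZD4573, and the groups were separate. The mean rose from 222 ± 7.05 to 281 ± 13.4 normalised CPM (SD, n = 3 each), a log2 fold change of 0.34 (SE 0.0454, 95% interval 0.25 to 0.44, adjusted p = 1.1e-05), which was -0.40 with mitochondrial scaling. The value is uncertain, because 967 of its 2421 exon bases overlap ENOSF1 on the opposite strand and RSEM was run with its default setting, which ignores strand. ENOSF1 went from 24.2 to 52 normalised CPM, and TYMSOS, which overlaps a further 193 bases, from 4.06 to 5.21. Reads from these genes cannot be told apart from those of TYMS where they overlap.

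A relation between the size of a gene and its change was not tested. The members that fell most spanned 42.3 kb (PPAT), 33.3 kb (CTPS1) and 18.8 kb (UMPS). HPRT1, the longest at 60.3 kb, and IMPDH2, the shortest at 5.1 kb, were both higher under TMM scaling and lower under mitochondrial scaling. The other members spanned 39.6 kb (GART), 37.8 kb (ATIC), 28.8 kb (PAICS), 26.6 kb (CAD) and 15.9 kb (TYMS).

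The scaling of the libraries decided the sign of the smaller changes. The mitochondrial genome is not transcribed by RNAP2, and its 13 mRNAs took 3.13% ± 0.0929 of counts with DMSO and 4.85% ± 0.162 with AZD4573 (SD, n = 3 each). Scaled to these mRNAs, all 10 members were lower, against 67.2% of all genes tested (12.1% were higher), and 6 of them by at least 1.5-fold, against 53.4%. The median log2 fold change of all genes then went from 0.03 to -0.71. With library size as the only scaling, that median was -0.08. The median of the members was -0.0010 under TMM and -0.74 under mitochondrial scaling, close to the median of all genes both times. Under TMM, RLE, library size and mitochondrial scaling alike, 5 members lay above the median of all genes. A change of scaling shifts all genes by nearly the same amount, so the agreement of these comparisons between scalings follows by construction. Relative to the median of all genes under TMM, UMPS was at -1.29, PPAT at -1.24 and CTPS1 at -1.19, while TYMS was at 0.32, IMPDH2 at 0.26, HPRT1 at 0.24 and PAICS at 0.21 on the log2 scale.

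**Figure D3:**
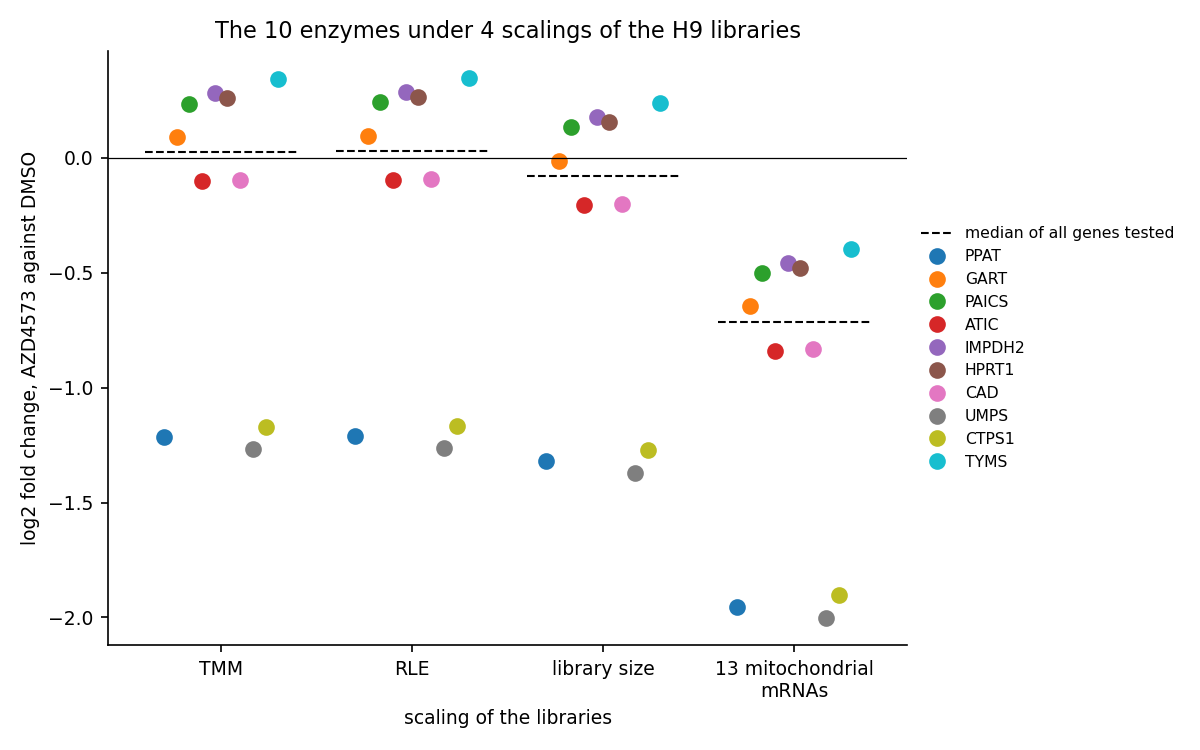
Log2 fold change of each enzyme (coloured points, AZD4573 against DMSO, 3 libraries each) under 4 scalings of the libraries, with the median of all genes tested as a dashed line. The order of the enzymes is kept by construction, as a change of scaling shifts all genes nearly alike. The median of all genes goes from 0.03 under TMM to -0.71 when scaled to the 13 mitochondrial mRNAs, where all 10 enzymes are below 0.

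The remaining genes of nucleotide metabolism were examined as 9 lists of 76 genes, of which 67 passed the filter on low counts. Among them, 31 passed the test downwards and 27 upwards under TMM scaling (59 and 4 with mitochondrial scaling, where 67.2% and 12.1% of all genes passed), with a median log2 fold change of -0.07, against 37.4% lower and 37.3% higher among all genes. In each list the largest fall and the largest rise were named by a rule on level and separation of the groups, and the further genes named here were added after their values had been seen. Directions below are those under TMM. Of the rises named by the rule, ADA, DUT and NT5M turned to log2 fold changes of -0.17, -0.22 and -0.26 under mitochondrial scaling, whereas TYMP stayed at 0.39.

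Upstream of PPAT, 3 of 4 genes of PRPP synthesis fell and none rose. PRPSAP1, a regulatory subunit of PRPP synthetase, went from 42.7 ± 1.19 to 33.6 ± 0.912 normalised CPM (log2 fold change -0.34, adjusted p = 3.8e-05), beside PRPSAP2 (-0.34) and PRPS2 (-0.31). The other enzymes of the IMP route, PFAS (-0.23) and ADSL (-0.29, adjusted p = 3.6e-05), both fell, so that PAICS was the only one of the 6 genes of this route to pass the test upwards under TMM scaling. ADSL shares 1344 exon bases with ENSG00000284431 on the same strand, which leaves its value uncertain.

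Past IMP, GMPS, which completes GMP after IMPDH2, fell from 150.4 ± 4.74 to 69.1 ± 5.00 normalised CPM, a log2 fold change of -1.12 (SE 0.0540, adjusted p = 6.6e-10), while IMPDH2 upstream of it rose under TMM scaling. ADSS2, on the way to AMP, fell with a log2 fold change of -0.83. ADSS1, its isozyme, rose at a low level (1.03 ± 0.269 to 1.67 ± 0.275 normalised CPM).

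Purine salvage and interconversion held 15 tested genes besides HPRT1, with 5 lower and 9 higher under TMM. ADA, which deaminates adenosine, had the largest rise among genes that reached 10 CPM, from 45.0 ± 1.36 to 66.8 ± 2.35 normalised CPM (log2 fold change 0.57, adjusted p = 1.7e-07), and shares 853 exon bases with PKIG on the opposite strand. AK1 (log2 fold change 1.12) and AMPD1 also rose, at lower levels. AK1 shares 894 exon bases with ENSG00000257524 on the same strand. AMPD1 had only 1, 2 and 0 counts with DMSO and 16, 23 and 10 with AZD4573, so the size of its rise is uncertain. AK6 had the largest fall (log2 fold change -1.66) but shares 508 exon bases with TAF9 on the same strand. PNP, which splits purine nucleosides into the bases that HPRT1 takes up, fell from 88.0 ± 2.26 to 31.4 ± 2.57 normalised CPM, a log2 fold change of -1.49 (adjusted p = 1.6e-10). The other falls were AMPD3 (-0.74), AK4 (-0.72) and AMPD2 (-0.33).

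On the pyrimidine side, DHODH, the mitochondrial step between CAD and UMPS, fell from 17.0 ± 1.09 to 10.3 ± 0.228 normalised CPM, a log2 fold change of -0.72 (adjusted p = 8.0e-07). CAD was thus the only tested gene of the route to UMP and CTP without a call. In pyrimidine salvage, 4 of 10 genes fell and 6 rose. CMPK2, a mitochondrial nucleotide kinase, had the largest fall (log2 fold change -1.80, adjusted p = 1.2e-09), followed by UCK1 (-0.76), UCK2 (-0.45) and DCK (-0.20). TYMP, thymidine phosphorylase, rose from 4.73 ± 0.748 to 10.3 ± 1.15 normalised CPM (log2 fold change 1.13, adjusted p = 1.6e-06). It shares 361 exon bases with SCO2 and 323 with ODF3B, both on the same strand, which leaves its value uncertain.

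Around TYMS, the supply of deoxynucleotides split as well, with 3 of 11 genes lower, 3 higher and 5 without a call. RRM2, the small subunit of ribonucleotide reductase that limits deoxynucleotide supply in S phase, fell from 605 ± 15.4 to 192 ± 11.2 normalised CPM, a log2 fold change of -1.66 (SE 0.0483, adjusted p = 1.9e-11). NME6 (-0.90) and RRM2B (-0.71) fell too. DUT, which makes the dUMP that TYMS methylates, rose from 206 ± 11.4 to 296 ± 7.05 normalised CPM (log2 fold change 0.52, adjusted p = 2.1e-07). NME2, a nucleoside diphosphate kinase, rose under TMM with a log2 fold change of 0.39. It shares 603 exon bases with NME1-NME2 on the same strand, which rose as well (1.23). The value of NME2 is therefore uncertain.

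Nucleotide breakdown had 6 of 11 genes lower and 4 higher. Among the 6 falls were NT5C3A (-1.01) and NT5C (-0.37). NT5M (0.48), SAMHD1 (0.38), DPYD (0.27) and UPB1 rose under TMM. UPB1, the end step of uracil breakdown, went from 0.376 ± 0.163 to 5.04 ± 0.640 normalised CPM. It shares 385 exon bases with ADORA2A-AS1 on the opposite strand, which leaves its value uncertain.

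Folate enzymes, which supply the one-carbon units used by GART, ATIC and TYMS, had 4 of 9 genes lower and 4 higher. SHMT2, the mitochondrial serine hydroxymethyltransferase, rose from 438 ± 16.2 to 753 ± 39.4 normalised CPM, a log2 fold change of 0.78 (adjusted p = 6.2e-09) under TMM, and was at 0.04 (adjusted p = 0.509) with mitochondrial scaling. MTHFD2 (0.35), MTHFD1L (0.15) and MTHFD1 (0.11) rose with it under TMM. SLC19A1, the reduced folate carrier, fell from 79.2 ± 1.86 to 39.1 ± 2.84 normalised CPM (log2 fold change -1.02, adjusted p = 2.2e-09), beside MTHFD2L (-0.38), FPGS (-0.28) and SHMT1 (-0.22). Errors in these lists are SD over 3 libraries, and genes sharing exon bases with a neighbour are uncertain where reads could be split.

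**Figure D4:**
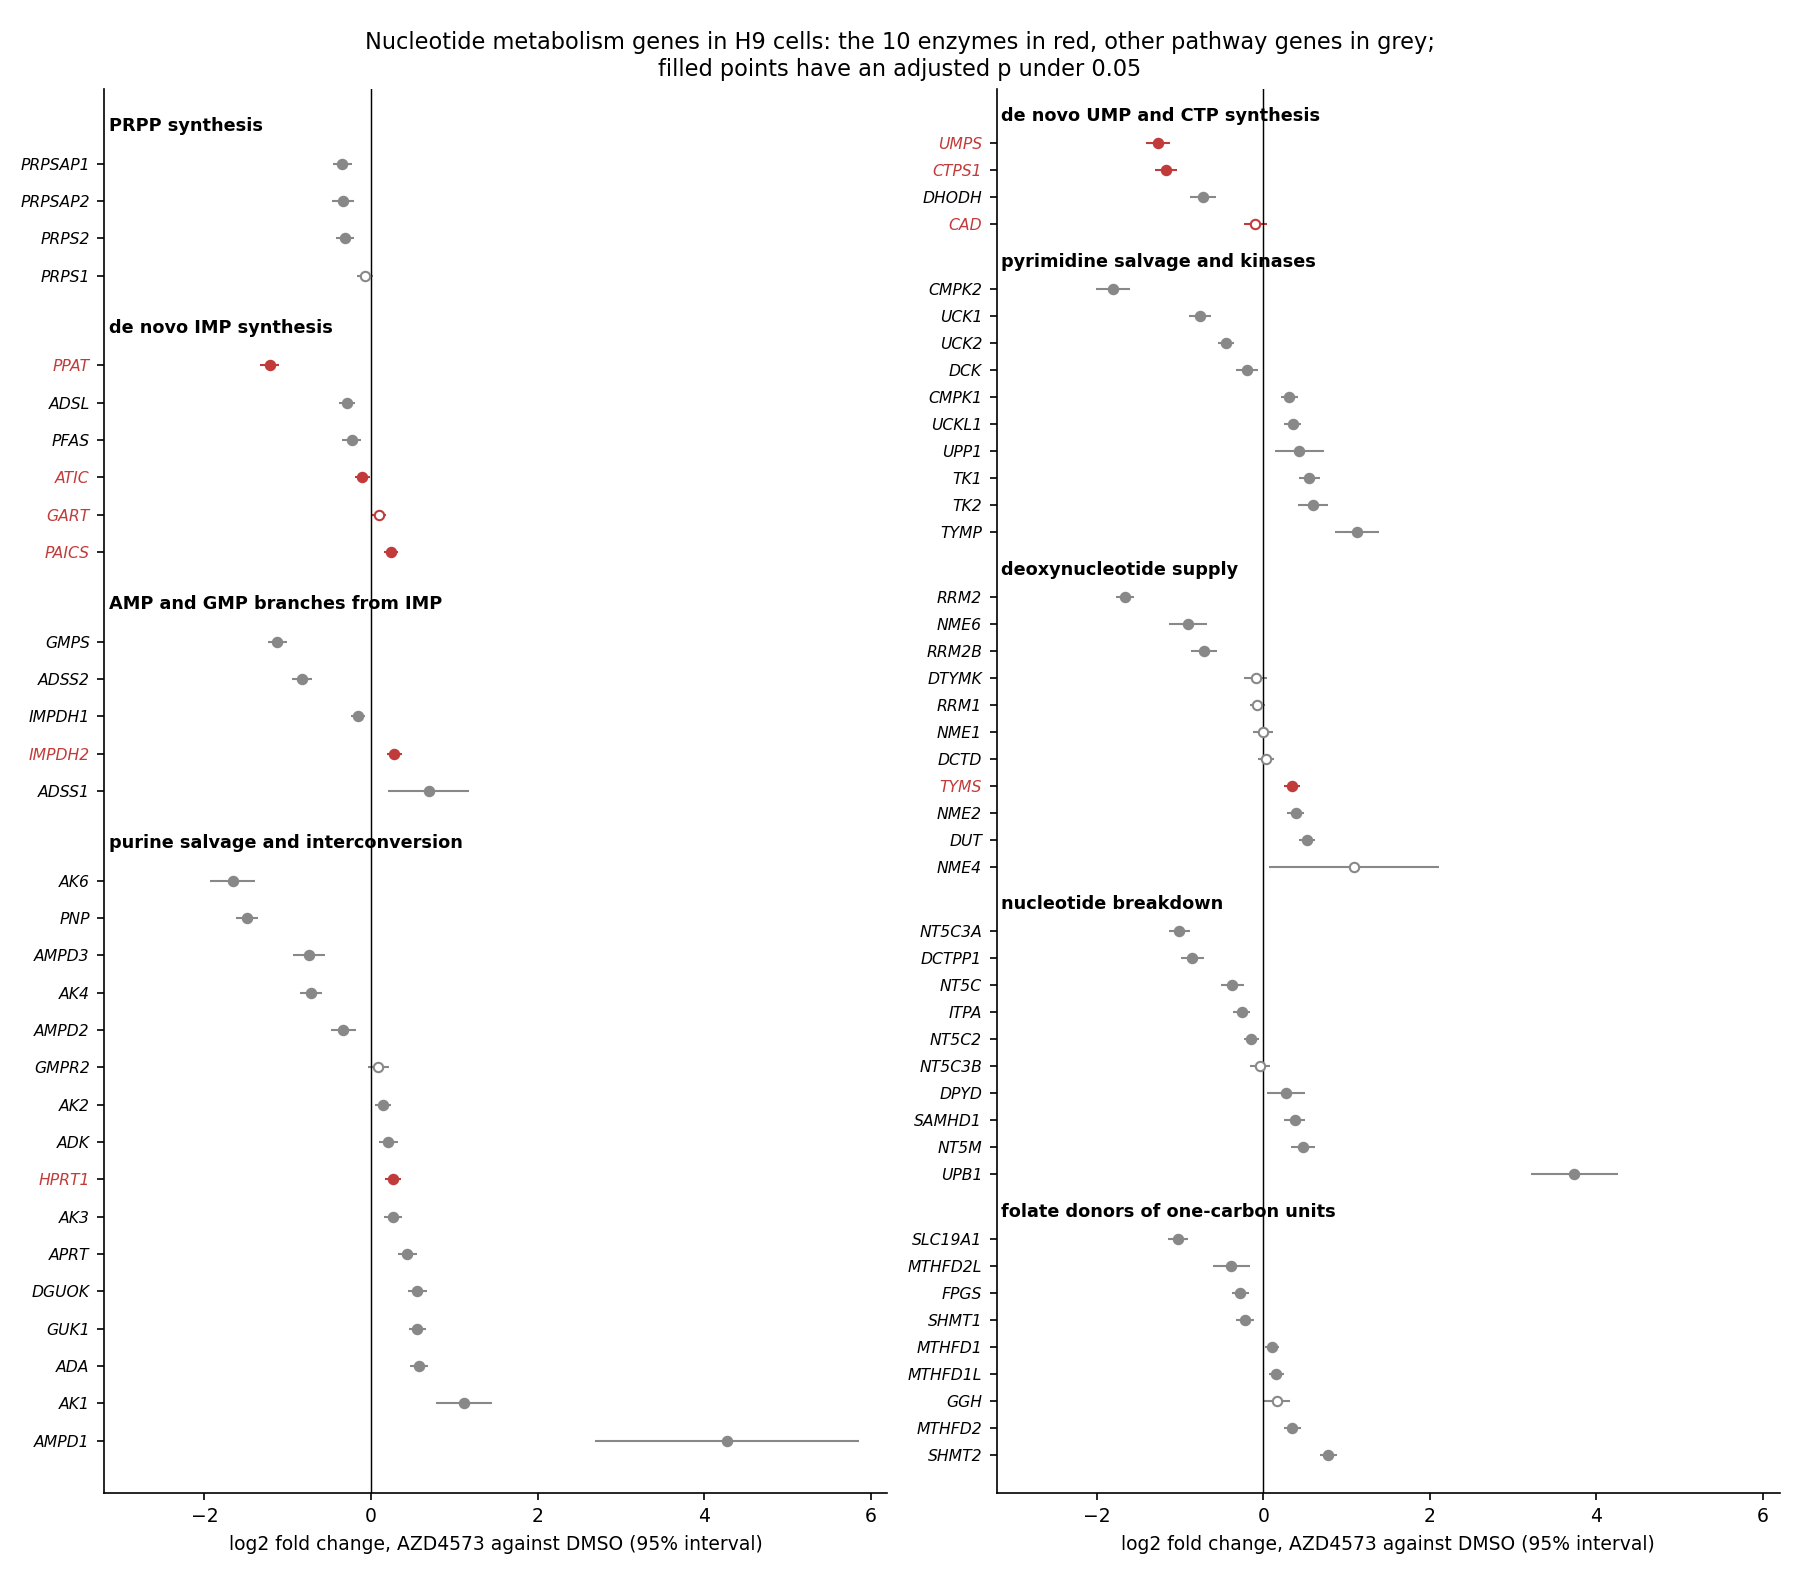
Log2 fold change with its 95% interval for the 10 enzymes (red) and 65 other tested genes of nucleotide metabolism (grey), grouped by step and ordered by value within each group under TMM scaling. Filled points have an adjusted p under 0.05, and falls beyond a log2 fold change of -1 are seen in most groups. Rises beyond 1 include AK1 (1.12), TYMP (1.13) and, at low levels, AMPD1 (4.27) and UPB1 (3.74). Of these, AK1, TYMP and UPB1 share exon bases with neighbouring genes, which leaves their values uncertain. Under mitochondrial scaling 59 of the 67 tested genes of these lists are lower and 4 higher, where 67.2% and 12.1% of all genes are.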

How the data were processed

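The authors trimmed the reads with cutadapt 2.3, aligned them to GRCh38 with STAR 2.7.8a and obtained expected counts for each gene from RSEM 1.3.3, as the submitters' processing notes and the supplemental methods give it. The deposited expected counts are whole numbers without normalisation. They cover 61546 entries, of which the 5 that are no Ensembl gene were left out. Libraries were grouped by their treatment label, and all 6 were used.

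The counts were fitted in R 4.3.3 with edgeR 4.0.16 on all genes (filter on low counts at a minimum of 10, 17678 genes kept, TMM factors, quasi-likelihood test, Benjamini-Hochberg adjustment over all genes tested, group as the only term). The supplemental methods used DESeq2, which was run here as an alternative (version 1.42.0). A standard error is the log2 fold change divided by the root of its F value. Ratios of counts within a library were compared by exact permutation tests. The procedure was tested on simulated data. No library was a copy of another, as pairs within a group differed beyond counting noise (chi-square over its degrees of freedom 5.51 to 20.5). Positions, exons and MANE Select transcripts came from GENCODE release 44 (61369 of 61541 genes matched), and promoter windows from RefSeq. The members and gene lists were chosen with earlier results of these data known. Besides the members, the genes named were, in each list, the largest fall and the largest rise among called genes that reached 10 CPM in a group's mean and whose groups were separate, and the second gene of each ratio. Alternatives were other scalings and filters, DESeq2, each library left out, a replicate block and pseudogene counts added to their gene. Normalised CPM are counts divided by the product of library size and TMM factor, times 1e+06. Molecular identifiers were not used, so limits from counts cover counting error only. Some genes of the lists that met the rule or were tested are not reported here by name.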

Additional observations from a re-analysis of the deposited data

How the results depend on the processing

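The counts of members called and the median log2 fold change stayed close to the reported values except under other scalings. Scaled to the 13 mitochondrially encoded mRNAs, 10 members were lower, 0 higher and 6 lower by at least 1.5-fold, with a median of -0.74, and 59 of the other pathway genes were lower and 4 higher, while 67.2% of all genes tested were lower, 12.1% higher and 53.4% lower by at least 1.5-fold. Under this scaling the log2 fold change was -0.65 for GART, -0.50 for PAICS, -0.46 for IMPDH2, -0.48 for HPRT1, -0.40 for TYMS, -0.17 for ADA, -0.22 for DUT and -0.26 for NT5M. With library size as the only scaling, the median of the members was -0.11 and GART was at -0.011. Both scalings move the median of all genes by construction. Leaving out 1 library at a time, between 3 and 5 members were lower, between 4 and 5 higher and 3 lower by at least 1.5-fold. The median ran from -0.013 to 0.0087, and 31 other pathway genes were lower and between 24 and 28 higher. Of the 18095 to 18234 genes tested in these fits, 6367 to 6637 were lower and 6241 to 6577 higher. The log2 difference of the PAICS to PPAT ratio then ran from 1.41 to 1.49 and that of IMPDH2 to IMPDH1 from 0.41 to 0.48. Of 335 values for single genes under the alternatives, 314 had the direction and the call reported. PPAT, UMPS and CTPS1 did so under all alternatives. Apart from mitochondrial scaling, 7 of the 10 members did, the others being GART, ATIC and CAD, and the cause was not tested.

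Replicate numbers are shared by the groups, but nothing in the labels pairs them. The deviations of same-numbered libraries from their group means correlated at -0.0208, 0.0417 and 0.0316, and 4 of 6 libraries correlated best with their own number. With a replicate block, 4 members were lower and 4 higher, 31 other pathway genes were lower and 28 higher, and the adjusted p was 0.0886 for GART and 0.0496 for ATIC. Of the 17678 genes tested with the block, 6524 were lower and 6447 higher. The block changed no call among the members. For the ratios, the paired exact sign-flip test gave p = 0.25, the smallest it can give with 3 pairs. For CTPS1 and CTPS2, no paired analysis was possible because CTPS2 had at most 1 count in a library, so that their ratio was not computed under any setting.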

Other observations

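MTAP, the salvage enzyme that returns the adenine of methylthioadenosine to the purine pool, was among the listed genes with 0 counts in all 6 libraries, which allows up to 0.0392 to 0.0576 CPM at these depths. It lies in a run of 28 neighbouring protein-coding genes of chromosome 9 with 0 counts in every library, from SLC24A2 (start 19507452) to TUSC1 (end 25678444, GRCh38). The run includes MLLT3, FOCAD, KLHL9, CDKN2A and CDKN2B beside type I interferon genes. The genes on either side, ACER2 and CAAP1, had 238 and 7190 counts over the 6 libraries. Of 19967 protein-coding genes in the table, 2907 had 0 counts in every library. This run was chosen after the values were seen, no test was made of it, and it does not differ between the groups.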
